A study of Sus scrofa domesticus with 6 samples.

Results

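Endothelial cells line the blood vessels that grow into cartilage as it turns to bone, and 9 genes that mark their identity are described here in the mandibular condyle of the pig embryo: VWF, PECAM1, MMRN2, TIE1, TEK, CD34, PTPRB, HEG1 and ARHGEF15. They were chosen by name from a table of 25322 gene rows, with earlier results of these data known. The table names 8 of them, and the row of MMRN2 was found through a table that pairs gene IDs with symbols; each name had a single row. The condyle is the growing end of the lower jaw at the temporomandibular joint, and the study compared condyles of miniature pig embryos aged 45 days with those aged 85 days to follow ossification. Each age has 3 RNA sequencing libraries, all made from tissue labelled as cartilage with chondrocytes and osteocytes as its source, with no agent or genetic change named for either age. The labels do not say whether each library came from a separate animal or from pooled animals, so p-values measure only the spread between these libraries.

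Growing cartilage is largely free of vessels. In endochondral ossification, endothelial sprouts enter the hypertrophic cartilage together with bone-forming and cartilage-resorbing cells, and vessels also persist in the perichondrium, the marrow and the attached muscle. The 9 genes cover what an endothelial cell shows and makes: VWF and MMRN2 are secreted, PECAM1 and CD34 sit on the cell surface, TEK and TIE1 are the receptors of angiopoietin signalling with PTPRB as the phosphatase that restrains TEK, HEG1 acts at junctions, and ARHGEF15 is a signalling protein inside the cell.

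Total counts per library ran from 12546729 to 16559616. All levels below are counts scaled to library size and composition (CPM) unless given as FPKM, the deposited value that also allows for gene length, all fold changes are day 85 over day 45, and calls are at an adjusted p under 0.05 in the quasi-likelihood test of edgeR, adjusted by Benjamini-Hochberg over the 15022 genes tested. Of these, 586 were higher and 400 lower at day 85, or 437 and 598 with total counts as the only scaling. Day 85 replicate 2 stood apart: Spearman's rank correlation across genes was 0.931 and 0.938 with the other day 85 libraries, which had 0.980 with each other. Chondrocyte markers summed to 8452 to 10284 CPM at day 45 and 382 to 2698 CPM at day 85, and skeletal muscle markers to 27367, 2115 and 24035 CPM in day 85 replicates 1, 2 and 3. Calls of the endothelial identity genes are therefore given with and without that library. So is the number of calls over all lists of related genes together. Calls and medians of each of those lists, and of the marker lists of other cells, use all libraries.

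All 9 endothelial genes stood higher at day 85 than at day 45, and in all 9 the lowest day 85 library lay above the highest day 45 library. Such a separation upward held for 17.4% of all genes tested. The edgeR test called 8 of the 9 higher and none lower, where 3.9% of all genes were called higher and 2.66% lower, and TEK was the exception at an adjusted p of 0.0559. The median log2 fold change of the 9 was 1.65, against 0.02 over all genes tested. In whole tissue, more endothelial cells and more of these transcripts per cell cannot be told apart. Without day 85 replicate 2, all 9 were called (12.3% of all genes called higher) with a median of 1.81. Leaving out any other single library lost most of the calls. Dropping day 45 replicate 1, 2 or 3 left 0, 0 and 1 called by edgeR, where 0.0262%, 0% and 0.0912% of all genes were called higher. Dropping day 85 replicate 1 or 3 left 0 and 1, where the shares were 0.0849% and 0.611%; the 1 gene was VWF each time. All 9 were higher at an unadjusted p under 0.05 in edgeR with all libraries, as were 15.8% of all genes. They were so too in each of the 6 fits that left out 1 library, where the share of all genes was 9.79%, 11.2% and 13.5% without day 45 replicates 1 to 3 and 12.1%, 19.3% and 13.1% without day 85 replicates 1 to 3. DESeq2 called all 9, where it called 12.6% of all genes higher, and again without day 85 replicate 2 (13.1%). With RLE, upper-quartile and total-count scaling 8 were called (4.01%, 3.51% and 2.91% of all genes), as with a minimal filter (2.6%), a filter of 1 CPM in 3 libraries (4.15%), limma-voom (3.48%), log2(FPKM + 1) (2.94%) and rows of a name summed (3.97%). With log2(FPKM + 0.1) 7 were called (2.98%).

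**Figure D1:**
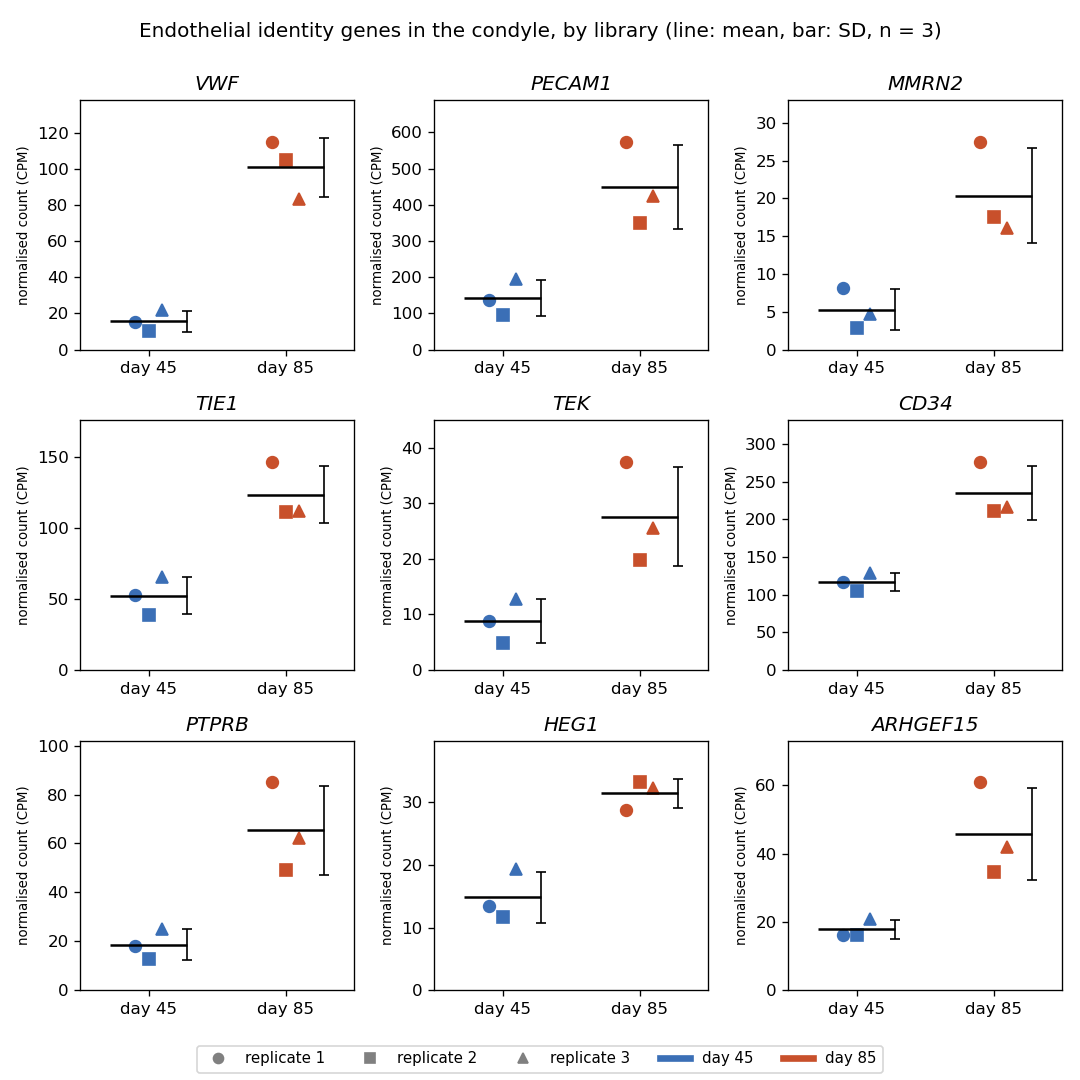
Normalised counts (CPM, vertical axis from 0) of each of the 9 genes in the 3 day 45 libraries (blue) and the 3 day 85 libraries (red); symbols mark the replicate number, lines the mean and bars the SD. In every panel the red points lie above the blue ones, and day 85 replicate 1 is the highest point in 8 of the 9 panels.

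VWF encodes von Willebrand factor, the large glycoprotein that endothelial cells store in Weibel-Palade bodies and that tethers platelets to a damaged wall. The deposited table places it on chromosome 5 from 67005340 to 67078256; no genome build was named in the sources. At day 45 its level was 15.0, 10.4 and 21.9 CPM in replicates 1, 2 and 3, and at day 85 it was 115, 105 and 83.1 CPM. The lowest day 85 library was 3.79 times the highest day 45 library, the widest gap among the 9 genes. VWF rose 6.40-fold (log2 fold change 2.68, SE 0.29, n = 3 per age, adjusted p = 0.0160), and 98.9% of all genes tested had a lower log2 fold change. Its call held without day 45 replicate 3 and day 85 replicates 2 and 3 (adjusted p = 0.0411, 0.00525 and 0.0485). It was lost without day 45 replicates 1 and 2 and day 85 replicate 1 (adjusted p = 0.109, 0.0720 and 0.0583), with log2 fold changes of 2.45 to 2.99 over the 6 fits.

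MMRN2, multimerin 2, is an extracellular matrix glycoprotein that lies along vessels and binds the endothelial lectins CD93 and CLEC14A. Its row, on chromosome 14 at 95292833 to 95308578, held the fewest counts of the 9, with 134, 40 and 72 at day 45 and 356, 264 and 243 at day 85. That gave 8.20, 2.89 and 4.71 CPM and then 27.5, 17.6 and 16.0 CPM, so the day 45 libraries differed among themselves by up to 2.84 times. MMRN2 rose 3.85-fold (log2 fold change 1.94, SE 0.41, adjusted p = 0.0443). The call held without day 85 replicate 2 (adjusted p = 0.0262) and was lost without each other library, where it reached 0.120.

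PECAM1, the adhesion molecule CD31 that joins neighbouring endothelial cells and is also made by platelets and leukocytes, lies on chromosome 12 at 14660875 to 14717153. The day 45 libraries held 137, 94.6 and 195 CPM and the day 85 libraries 575, 349 and 423 CPM, a rise of 3.15-fold (log2 fold change 1.66, SE 0.31, adjusted p = 0.0362). CD34, a sialomucin of vessel endothelium that blood progenitors and some connective tissue cells carry too, lies on chromosome 9 at 148445971 to 148470659. It stood at 117, 104 and 129 CPM and then at 276, 211 and 217 CPM. Its day 45 libraries were the closest of any of the 9 genes, within 1.24 times of each other, and it had the smallest rise, 2.01-fold (log2 fold change 1.01, SE 0.15, adjusted p = 0.0247). Without day 85 replicate 2 the adjusted p was 0.0136 for PECAM1 and 0.00601 for CD34. Without each other library neither was called, with adjusted p up to 0.161 and 0.133.

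**Figure D2:**
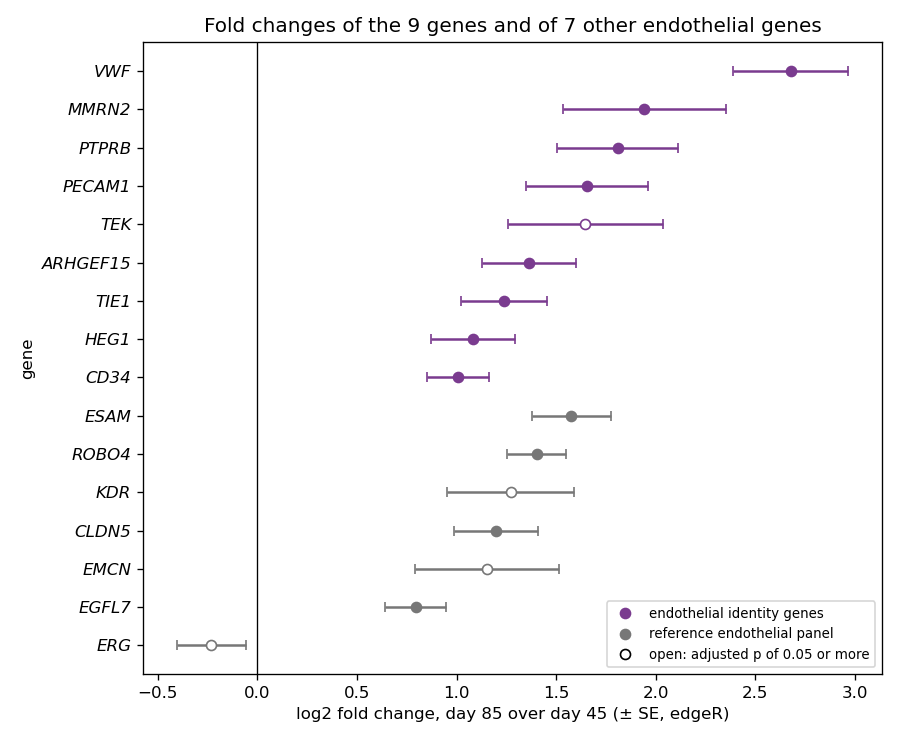
Log2 fold change, day 85 over day 45, with its standard error (horizontal axis) for the 9 genes (purple) and for 7 other endothelial genes (grey); open points did not reach an adjusted p under 0.05. VWF lies farthest to the right at 2.68, CD34 is the lowest of the 9 at 1.01, and ERG alone lies left of 0.

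TIE1 and PTPRB rose at day 85, and TEK was higher in every library without being called. TIE1, a receptor tyrosine kinase that works beside TEK and binds no angiopoietin strongly itself, stood at 52.4, 38.9 and 65.0 CPM at day 45 and at 146, 111 and 112 CPM at day 85. It rose 2.36-fold (log2 fold change 1.24, SE 0.22, adjusted p = 0.0307) and lies on chromosome 6 at 155288383 to 155321728. That locus overlaps another row, which held 42 counts against 7648 for TIE1 over all libraries. TEK, also called TIE2, is the receptor for the angiopoietins. On chromosome 1 at 218224162 to 218500245, it had 8.76, 4.90 and 12.7 CPM and then 37.4, 19.9 and 25.5 CPM, with no overlap between the ages. Its log2 fold change of 1.65 was close to that of PECAM1, but its SE of 0.39 was larger and it was not called (adjusted p = 0.0559). DESeq2 called it on the same libraries (adjusted p = 8.35e-05), as did edgeR without day 85 replicate 2 (adjusted p = 0.0239); without each other library it reached an adjusted p of up to 0.197. PTPRB, the vascular endothelial phosphatase VE-PTP, stood at 18.0, 12.8 and 25.2 CPM and then at 85.0, 49.0 and 62.4 CPM. It rose 3.51-fold (log2 fold change 1.81, SE 0.30, adjusted p = 0.0290) and lies on chromosome 5 at 37233902 to 37330156. The calls of TIE1 and PTPRB held without day 85 replicate 2 (adjusted p = 0.0126 and 0.00855) and were lost without each other library, each with an adjusted p of up to 0.147.

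HEG1 is a transmembrane protein that anchors the cerebral cavernous malformation complex at endothelial junctions. The day 45 libraries held 13.5, 11.6 and 19.4 CPM and the day 85 libraries 28.8, 33.1 and 32.3 CPM. HEG1 was the only member lowest in day 85 replicate 1, and its day 85 libraries lay within 1.15 times of each other. The rise was 2.12-fold (log2 fold change 1.08, SE 0.21, adjusted p = 0.0374), with the gene on chromosome 13 at 144767536 to 144800588. ARHGEF15, which is enriched in endothelium, stood at 16.2, 16.2 and 21.0 CPM and then at 60.8, 34.7 and 41.9 CPM. It rose 2.57-fold (log2 fold change 1.36, SE 0.24, adjusted p = 0.0301) and lies on chromosome 12 at 55971353 to 55980772. That locus overlaps the row of SLC25A35, which held 142 counts against 2755 for ARHGEF15 over all libraries; whether counting used strand was not stated. Without day 85 replicate 2 both were called (adjusted p = 0.0219 and 0.00508), and without each other library neither was, up to 0.165 and 0.149.

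Compared per length on the deposited FPKM scale, CD34 had the highest mean of the 9 at both ages, at 26.5 ± 4.25 FPKM (SD, n = 3) at day 45 and 52.1 ± 10.3 at day 85. PECAM1 followed at 16.5 ± 6.77 and 50.5 ± 15.3 FPKM, and TIE1 at 15.9 ± 4.83 and 36.5 ± 7.52 FPKM. PECAM1 ranked above TIE1 in all 3 day 85 libraries and in 1 of 3 day 45 libraries, and CD34 ranked above PECAM1 in every library except day 85 replicate 1. TEK had the lowest mean, at 1.19 ± 0.591 and 3.64 ± 1.35 FPKM. The order changed at VWF. It ranked 8, 7 and 7 of 9 in the day 45 libraries (2.66 ± 1.13 FPKM) and 4 in each day 85 library (16.5 ± 3.00 FPKM). Its mean there was close to that of ARHGEF15 (14.0 ± 4.77 FPKM), the next in order, with overlapping spread. HEG1 went from rank 5 in each day 45 library to ranks 8, 7 and 7, at 3.41 ± 1.14 and then 6.97 ± 0.272 FPKM. Of the summed FPKM of the 9 genes, VWF took 3.31%, 2.92% and 3.92% at day 45 and 7.83%, 10.1% and 7.51% at day 85, while CD34 took 35.1%, 39.8% and 31.3% and then 25.5%, 27.5% and 26.6%. Neither gene's shares overlapped between the ages. The same held for TIE1 (21.0%, 19.8% and 21.1%, then 18.0%, 19.4% and 18.3%). It held too for PTPRB (3.86%, 3.49% and 4.39%, then 5.62%, 4.57% and 5.49%). The shares of the other genes overlapped. Shares of a sum depend on each other, and CD34 and TIE1 rose in level while their shares fell.

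Within an age, most members moved together from library to library. Day 45 replicate 3 had the highest CPM for 8 of the 9 genes, with MMRN2 highest in replicate 1, and day 45 replicate 2 had the lowest for 8, with ARHGEF15 lowest in replicate 1 by a small margin (16.22 against 16.23 CPM). Day 85 replicate 1 had the highest for 8, with HEG1 highest in replicate 2. The summed level of the 9 was 387, 297 and 494 CPM in the day 45 libraries and 1351, 930 and 1013 CPM in the day 85 libraries. Summed skeletal muscle markers (6409, 3192 and 7095 CPM, then 27367, 2115 and 24035 CPM) put the libraries in the same order within each age. In day 85 replicate 2 they lay below all day 45 libraries, whereas the endothelial sum lay above all of them. To compare profiles, log2 CPM was centred on each gene's mean over the 6 libraries and the root mean square difference between genes was taken. PECAM1 and PTPRB were the closest pair at 0.08, followed by PECAM1 and TEK at 0.12 and TEK and PTPRB at 0.14. VWF and CD34 were the farthest apart at 0.90.

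Each gene was also set against a panel of other endothelial genes in the same library. The panel held CLDN5, ESAM, KDR, EMCN, ROBO4, ERG and EGFL7; CDH5, also on the list, was not analysed here. The edgeR test called 4 of its genes higher, ESAM, ROBO4, CLDN5 and EGFL7 (log2 fold changes 1.58, 1.40, 1.20 and 0.79). It did not call KDR, EMCN and ERG (1.27, 1.15 and -0.23). DESeq2 called KDR and EMCN as well (adjusted p = 0.000344 and 0.0174), where it called 12.6% of all genes higher. So did edgeR without day 85 replicate 2 (adjusted p = 0.0168 and 0.0223), where 12.3% of all genes were called higher. ERG was called in neither. The mean log2 CPM of the panel was 0.99 higher at day 85. VWF stood below the panel mean by 1.41, 1.72 and 1.00 log2 units at day 45 and above it by 0.21, 0.60 and 0.16 at day 85, a shift of 1.70. MMRN2, PTPRB and PECAM1 shifted by 0.93, 0.81 and 0.70 relative to the panel with no overlap between ages, and ARHGEF15 and TIE1 by 0.32 and 0.26. TEK shifted by 0.65, with overlapping ages. HEG1 (0.10) and CD34 (0.01) shifted by less than the spread between libraries against the panel mean, but by 0.51 and 0.42 against the panel median. CD34 lay 1.51, 1.54 and 1.53 above it at day 45 and 1.47, 1.61 and 1.54 at day 85. In the exact two-sided permutation test VWF, PECAM1, MMRN2, TIE1, PTPRB and ARHGEF15 had p = 0.1, the smallest that 3 libraries against 3 allow, with 0.15 after adjustment over the 9 genes. TEK, CD34 and HEG1 had exact p = 0.2, 0.7 and 0.9. Several of these shifts depend on ERG, which was not called. Without it the panel mean was 1.19 higher, VWF shifted by 1.50, MMRN2 by 0.73, PTPRB by 0.61, PECAM1 by 0.49, TEK by 0.45, ARHGEF15 by 0.12 and TIE1 by 0.06, and CD34 and HEG1 turned to -0.19 and -0.10. The ages then no longer separated for MMRN2, ARHGEF15 and TIE1 (exact permutation p = 0.2, 0.5 and 0.6), and they separated downward for CD34 (exact permutation p = 0.1, the smallest possible). Without day 85 replicate 2, CD34 and HEG1 turned to -0.02 and -0.04.

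**Figure D3:**
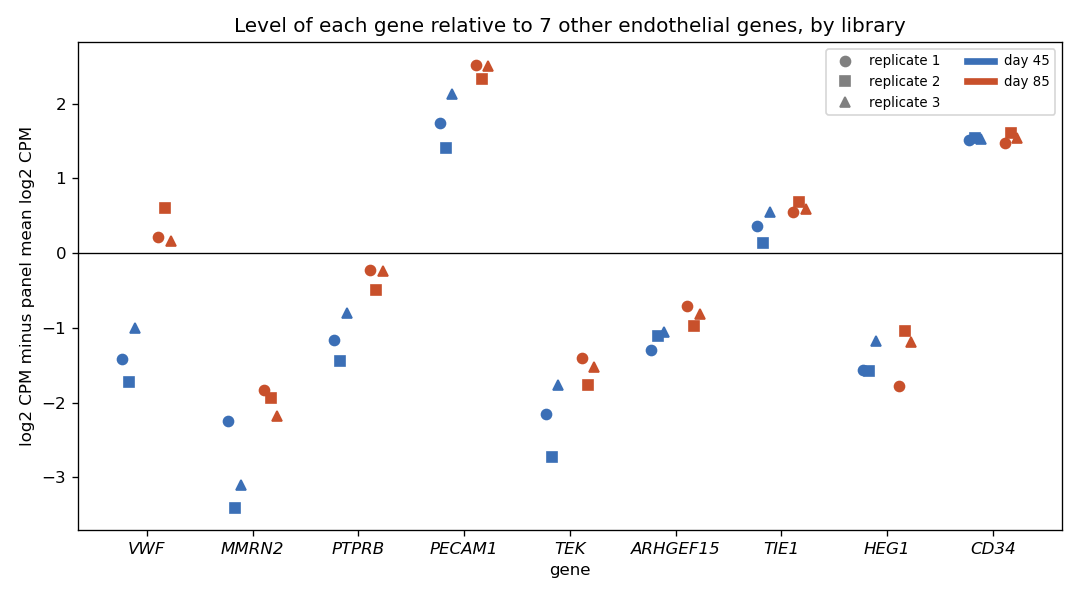
For each of the 9 genes, log2 CPM minus the mean log2 CPM of the 7 panel genes in the same library (vertical axis), at day 45 (blue) and day 85 (red). VWF crosses from below the panel mean to above it, whereas the points of CD34 at both ages lie between 1.47 and 1.61.

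Genes that work with the 9 were taken from 6 lists with 75 genes, of which 64 were tested. The edgeR test called 21 higher and 0 lower. Of all genes tested it called 3.9% higher and 2.66% lower, shares that apply to each list below. Among ligands and partners of the TIE receptors 1 of 8 tested was called higher. FOXO1, a transcription factor held in check by TEK signalling, rose 1.94-fold (adjusted p = 0.0316), with a median log2 fold change of 0.37 over the list. ANGPT1, the activating ligand, stood at 3.98, 5.34 and 5.63 CPM and then at 7.58, 5.27 and 4.02 CPM, with overlapping ages. ANGPT2, made by endothelium itself, went with overlap from 20.5, 11.1 and 32.0 CPM to 46.2, 29.5 and 35.2 CPM (adjusted p = 0.223). ANGPT4, another angiopoietin on the list, went without overlap from 9.61, 14.1 and 13.1 CPM to 16.9, 31.7 and 23.2 CPM. It was not called by edgeR (adjusted p = 0.0736) but was called by DESeq2 (adjusted p = 0.00254). These ligands were picked for their role after their values were seen. SVEP1, a matrix protein that binds TIE1, had a log2 fold change of 0.34 (adjusted p = 0.227).

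Junction genes had a median of 0.88, and 4 of 10 tested were called higher. They were ICAM2 (3.41-fold, adjusted p = 0.0238), ESAM (2.98-fold, adjusted p = 0.0186), CLDN5, the main claudin of endothelium (2.29-fold, adjusted p = 0.0317), and CTNND1, p120-catenin, which many cell types share (1.38-fold, adjusted p = 0.0462). ESAM and CLDN5 belong to the panel as well. Of 15 tested transcription factors, 6 were called higher, with a median of 0.74. SOX7 rose 3.28-fold from 20.4, 16.6 and 34.3 CPM to 101, 57.5 and 75.2 CPM (adjusted p = 0.0383). BCL6B, an endothelial repressor, rose 2.93-fold (adjusted p = 0.0155), GATA2 2.53-fold (adjusted p = 0.0462) and TAL1 2.24-fold (adjusted p = 0.0222); GATA2 and TAL1 also act in blood cells. ERG, an ETS factor that endothelium and cartilage share, stood at 78.6, 104 and 85.7 CPM and then at 89.6, 75.5 and 62.9 CPM (log2 fold change -0.23, SE 0.17, adjusted p = 0.405).

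Surface and secreted endothelial proteins had a median of 1.15, and 7 of 17 tested were called higher. PODXL, a relative of CD34, rose 3.05-fold (adjusted p = 0.0215), the adhesion receptor ADGRL4 2.99-fold (adjusted p = 0.0257), CLEC14A 2.68-fold (adjusted p = 0.0199) and ROBO4 2.64-fold (adjusted p = 0.0160). The VEGF receptor KDR was not called by edgeR on all libraries (adjusted p = 0.0625), with 126, 97.2 and 183 CPM before and 435, 222 and 326 CPM after.

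Lymphatic genes were not called in edgeR (0 of 5 tested), with a median of 0.80. Of them, 2 were higher at an unadjusted p under 0.05, as were 15.8% of all genes. DESeq2 called 2 higher, where it called 12.6% of all genes higher. LYVE1 stood at 14.3, 12.1 and 24.3 CPM and then at 31.7, 28.2 and 24.0 CPM. RELN was at 130 CPM in day 85 replicate 2 and at 2.67 to 20.3 CPM in the other 5 libraries. Over the 6 lists, 30 genes were called higher and 2 lower (KLF4 and TNIP2) without day 85 replicate 2. In that fit 12.3% of all genes were called higher, and 1528 of 15271 were called lower. Without day 45 replicates 1 and 2 and day 85 replicate 1, edgeR called 0 each, with 37, 35 and 36 higher at an unadjusted p under 0.05 (9.79%, 11.2% and 12.1% of all genes). BCL6B was called without day 45 replicate 3, and BCL6B and ROBO4 without day 85 replicate 3. DESeq2 on all libraries called 41 higher and 0 lower (12.6% of all genes higher).

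**Figure D4:**
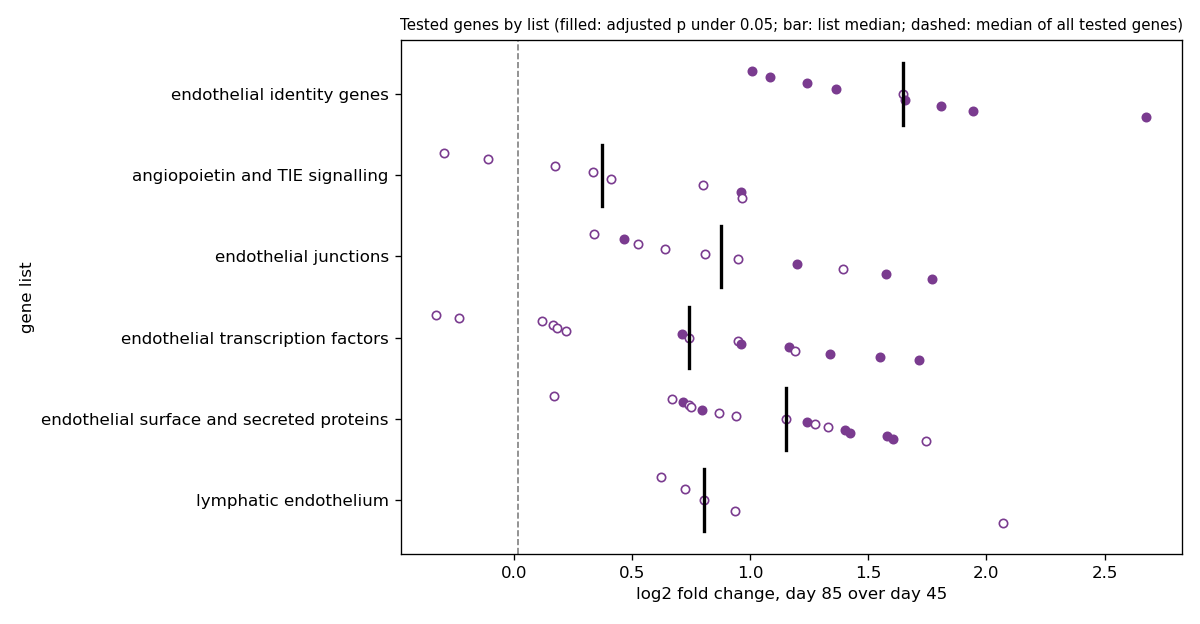
Log2 fold change of every tested gene (points, horizontal axis) in the 9 endothelial identity genes and in 5 lists of related genes; filled points were called, bars mark list medians, and the dashed line marks the median of all genes tested (0.02). All 9 identity genes lie at 1.01 or above, whereas each of the other lists also holds genes below 1. The 9 genes and the lists were chosen with earlier results of these data known, so this difference is a description only.

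The named genes outside the 9 whose profiles lay closest to the mean profile of the 9 were sought among 11889 candidates with at least 1 CPM, by the root mean square difference over the 6 libraries. They were C10orf54 (0.07), PSEN2 (0.08), ESAM (0.09), MNDA (0.10) and ZNF366 (0.11). Apart from ESAM, none of these was on any list used here, and which cells made them was not tested. PSEN2, a presenilin of the gamma-secretase complex, stood at 37.7, 29.9 and 46.5 CPM and then at 134, 94.2 and 108 CPM. ESAM, the endothelial cell adhesion molecule of the junction list, stood at 11.5, 9.38 and 14.0 CPM and then at 41.2, 31.6 and 31.4 CPM.

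Some of the 9 genes are shared with other cells, so the markers of those cells are given beside them. Of 10 megakaryocyte and platelet genes, which cells make VWF and PECAM1 too, 9 had a row and 4 were tested. They summed to 12.8 to 19.2 CPM at day 45 and 17.3 to 26.9 CPM at day 85. PF4 had no count in any library, which allows up to 0.239 CPM in the shallowest one (3 counts, counting error only). PPBP, GP6 and TREML1 had at most 0.122 CPM in any library. NFE2, which red cell precursors use as well, was the 1 called higher (10.4-fold, adjusted p = 0.0389, from under 0.5 CPM in each day 45 library). Of 7 blood progenitor and leukocyte genes 0 were called in edgeR, with 4 higher at an unadjusted p under 0.05, as were 15.8% of all genes. They summed to 14.0 to 24.7 and 26.6 to 57.3 CPM.

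Macrophage genes (0 of 7 tested called in edgeR, 6 higher at an unadjusted p under 0.05) summed to 82.3 to 172 CPM and then to 262, 969 and 250 CPM. Erythroid genes (2 of 5 called higher, SLC4A1 and KLF1, and 5 higher at an unadjusted p under 0.05) summed to 21.5 to 24.2 and then to 76.0, 139 and 40.3 CPM. Both were highest in day 85 replicate 2, where 6 of the 9 endothelial genes had their lowest day 85 level. Mural cell genes (RGS5 and MCAM called higher and CSPG4 lower, of 10) summed to 1446 to 2362 CPM and then to 6487, 1586 and 6000 CPM, of which DES, which muscle fibres make too, gave 4849, 345 and 4414 CPM at day 85. Fibroblast genes (0 of 6 called in edgeR, 0 at an unadjusted p under 0.05 in either direction) summed to 28468 to 29810 and 17428 to 30360 CPM. Skeletal muscle genes had 1 of 6 called higher (MYBPC2) and 4 higher at an unadjusted p under 0.05. Chondrocyte genes had 2 of 6 called lower (HAPLN1 and SOX9). The median log2 fold change was 3.09 for erythroid, 2.68 for muscle, 1.76 for macrophage and 1.18 for mural cell genes. It was 1.15 for blood progenitor and leukocyte, 0.07 for megakaryocyte and platelet, -0.23 for fibroblast and -2.68 for chondrocyte genes. The median of the 9 endothelial genes was 1.65. Calls and medians of these marker lists are from all libraries, day 85 replicate 2 included. The part of muscle, macrophage, blood and mural cells in the endothelial result was not tested.

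**Figure D5:**
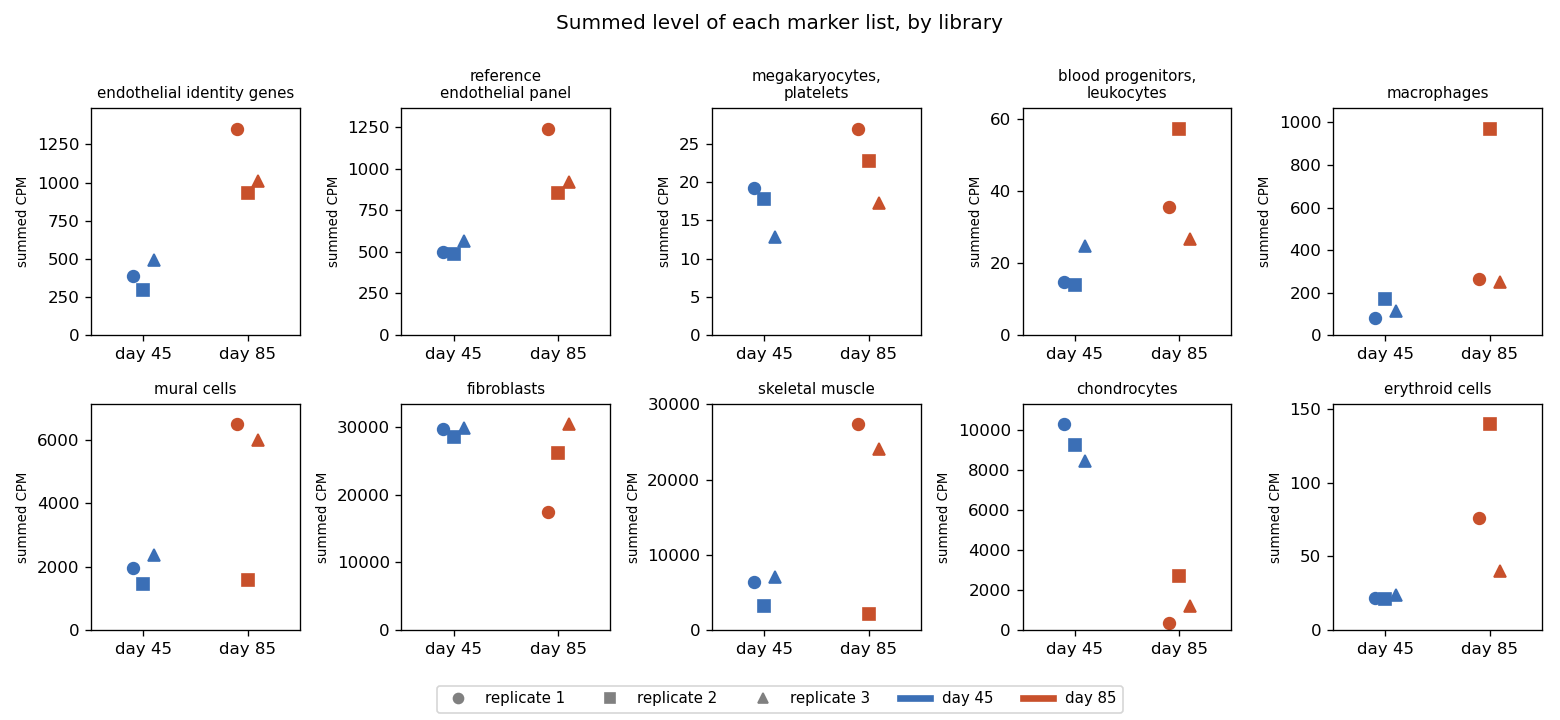
Summed CPM of each marker list in each library (vertical axes from 0), day 45 in blue and day 85 in red, with symbols for the replicate number. The endothelial sums separate the ages upward, as do the sums of macrophages, of blood progenitors and leukocytes, and of erythroid cells. The chondrocyte sum separates them downward. Muscle and mural sums in day 85 replicate 2 (2115 and 1586 CPM) lie within or below the day 45 range.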

How the data were processed

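RNA was sequenced from 6 condyle libraries, 3 per age. Per the labels' protocols, ribosomal RNA was removed and the second cDNA strand was degraded, and the submitters' processing notes name the aligner HISAT2. Which program counted the reads, on which build and annotation, and whether by strand, was not given in the sources used here. Per the file headers, the authors deposited a whole-number read count and an FPKM value for each gene and library. For 10748 genes with at least 50 counts in every library, FPKM was proportional to the count over the library total, with a largest deviation of 0.00123%.

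Age was tested on the counts by edgeR 4.0.16 under R 4.3.3 (filterByExpr, a minimum count of 10, TMM scaling, robust quasi-likelihood F test, age as the only factor), and the standard error is the log2 fold change divided by the square root of F. Where several rows share a symbol, the row with the highest counts carries it. Levels relative to the panel used log2(CPM + 0.5) and an exact two-sided permutation test over 20 splits. Alternatives were DESeq2 1.42.0, limma 3.58.1, other scalings and filters, a replicate block and leaving out each library. The 9 genes and the lists were chosen with earlier results of these data known. Counts over the 6 lists include 1 list that is not reported here on its own. Named genes are the 9, the panel, per list up to 4 called genes of at least 1 CPM, taken by size of change (the 2 most abundant where fewer than 2 were called), and the 5 closest profiles; other names are marked as chosen later or stand in counts of calls. In data simulated for day 85 against day 45 (14884 genes, 10 simulations, 200 changed genes each), edgeR found 16.1% of the 2-fold changes and 78.9% of the 4-fold changes, with 9.21% false calls. That share of false calls was above the threshold used for calls, so calls close to the threshold are less certain. Whether these rates hold for the deposited libraries was not tested. No pair of libraries of an age was a duplicate (chi-square per degree of freedom of 20.2 or more).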

Additional observations from a re-analysis of the deposited data

How the results depend on the processing

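All 9 genes kept a positive log2 fold change under every alternative run. Under scaling by RLE, upper quartile or total counts, under both other filters, with summed rows and with limma-voom, 8 were called; with log2(FPKM + 0.1) 7 were, HEG1 being lost at an adjusted p of 0.0507. Adding 1 to the FPKM lowered the median log2 fold change of the 9 to 1.17 and gave 614 genes lower overall. DESeq2 called 2064 genes higher and 1770 lower, and 41 of the listed genes; without day 85 replicate 2, a fit added after seeing the data, it called 2085, 1796 and 33. Leaving out each library in turn, edgeR called 0 to 1884 genes higher, 0 to 1528 lower, 0 to 9 of the 9 genes and 0 to 30 of the listed genes; fewer libraries are part of that change by construction. With the replicate number as a block, 465 genes were called higher, 217 lower and all 9 endothelial genes, TEK included at 0.0459. Deviations from the age mean in same-numbered libraries correlated at -0.000193, 0.229 and 0.00129. Of the day 45 libraries, 1 of 3 correlated best with its own number. With 3 libraries per age these values cannot decide whether the numbers pair the libraries. Relative to the panel, CD34 and HEG1 turned to -0.19 and -0.10 without ERG, an alternative added after seeing the data, and leaving out 1 library gave -0.0235 to 0.0457 for CD34 and -0.0443 to 0.318 for HEG1, both lowest without day 85 replicate 2. With the panel median VWF shifted by 2.11 and CD34 by 0.42. At 40 to 134 counts per day 45 library, MMRN2 had the fewest counts of the 9 and the least precision from depth. The sequence description planned for these genes was not run.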

Other observations

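Ratios of FPKM within a library do not depend on library scaling, and 6 were taken after the values above had been seen. VWF over PECAM1 was 0.159, 0.160 and 0.164 at day 45 and 0.292, 0.438 and 0.286 at day 85, so each day 85 library lay above every day 45 library. PECAM1 over CD34 was 0.593, 0.459 and 0.766 and then 1.05, 0.835 and 0.989, with no overlap between ages. TIE1 over TEK was 13.5, 17.9 and 11.6 and then 8.82, 12.6 and 9.90, with overlap. ANGPT1, the activating ligand, stood at 3.30, 7.90 and 3.22 times the level of its receptor TEK at day 45. At day 85 it stood at 1.47, 1.92 and 1.14 times that level, where every library lay below every day 45 library. The level of ANGPT1 itself overlapped between the ages (log2 fold change 0.17), and that of TEK did not. PTPRB over TEK (2.49, 3.15 and 2.40, then 2.75, 2.99 and 2.96) and ANGPT2 over ANGPT1 (0.921, 0.372 and 1.02, then 1.09, 1.00 and 1.56) both overlapped between the ages. The 6 ratios share genes, and how often ratios of other genes separate the ages was not computed.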
